A study of Mus musculus with 14 samples.

Results

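Serum proteins of wounded mice were compared between negative pressure (NP) and atmospheric pressure (AP) after 2 h of treatment. The comparison took the raw intensities of the 2 NP samples and the 2 AP samples at 2 h, 4 of the 14 samples of the series, over all 111 of the 111 analytes on the array, without the reference spots and the negative control. The animals were male C57BL/6JNarl mice of 8 weeks with full-thickness skin wounds. The NP mice received negative pressure wound therapy and the AP mice a traditional wet dressing, and the labels name no transgene or drug. Blood was taken from the cheek, and portions of serum from a group were combined for each membrane, so a sample is a pool and not a mouse. Earlier and later groups (0.5 and 16 h of NP, 0, 0.5 and 16 h of AP), again of 2 samples each, entered the estimate of the spread, and all but the 0 h group were also set beside the 2 h difference. The study's methods and design text describe the array experiments at these times as repeated independently, with each protein spotted in duplicate, but do not say whether the repeats used serum of different mice. The p-values therefore set the difference between these NP and AP pools against the spread of replicate membranes over the 7 groups. They do not measure the spread between single mice, and the pools may differ for technical reasons.

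Wound repair begins with hemostasis, in which tissue factor starts the clotting cascade and platelets release their stored growth factors. Inflammation follows, as chemokines, small secreted proteins that guide leukocytes, call neutrophils, monocytes and lymphocytes to the tissue, and as cytokines such as IL-6 act on the liver to raise the acute phase proteins. Receptors that are cut from cell surfaces, growth factors and matrix proteases also reach the blood, and a membrane antibody array reads many of them at once as the brightness of a spot for each antibody.

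The overall brightness differed between the membranes before any analyte was considered. The reference spots, which carry a fixed signal, had a mean raw intensity of 27336 and 23486 in the NP samples, against 35490 and 33850 in the AP samples. They did not differ evenly across the membrane. The log2 ratio of NP to AP was -1.10 at the reference position in the first row and first column (A1), -0.66 at the far end of that row (A23) and 0.17 at the start of the last row (J1). Each level below is the raw intensity as a percent of the mean of the 3 reference positions of the same sample, called the reference scale. The median analyte reached 3.42% and 4.26% in the NP samples, against 9.77% and 9.67% in the AP samples. The negative control stood at 0.263% and 0.102% in NP and at 0.197% and 0.0916% in AP. Above it in both samples were 87 analytes in NP and 108 in AP. Replicates differed by a median of 19.2% in NP and 10.0% in AP, and by 8.07 to 12.9% in the other groups.

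After 2 h most analytes had a lower level in NP than in AP, a small number had a higher one, and the widest gaps were those of a few proteins at either end of the ranking. With limma over all 14 samples and an adjusted p threshold of 0.05, 11 analytes (9.91% of all tested) were higher in NP and 70 (63.1%) were lower. The median analyte lay at a log2 difference of -0.70, where negative values mean lower in NP, and the quartiles were -1.48 and -0.19. The medians of the same difference were -0.02 at 0.5 h and -0.02 at 16 h. Both NP samples exceeded both AP samples for 15 analytes (13.5%) and fell short of both for 81 (73.0%).

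The count of analytes in each direction depended on the scale. On the authors' normalized intensity, which equalises replicates but not groups, every difference was lower by 0.53, so that 4 analytes (3.6%) were higher in NP, 96 (86.5%) were lower and the median stood at -1.23. The order of the analytes and their distance from the median analyte were the same on both scales. Relative to the median analyte, 33 (29.7%) were above it and 38 (34.2%) below it at the same threshold, with the error of the median itself not included. With the medians of the samples set equal, 50 were called higher and 13 lower, with quantile normalization 30 and 31, and with equal medians of the membrane rows 39 and 25.

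**Figure D1:**
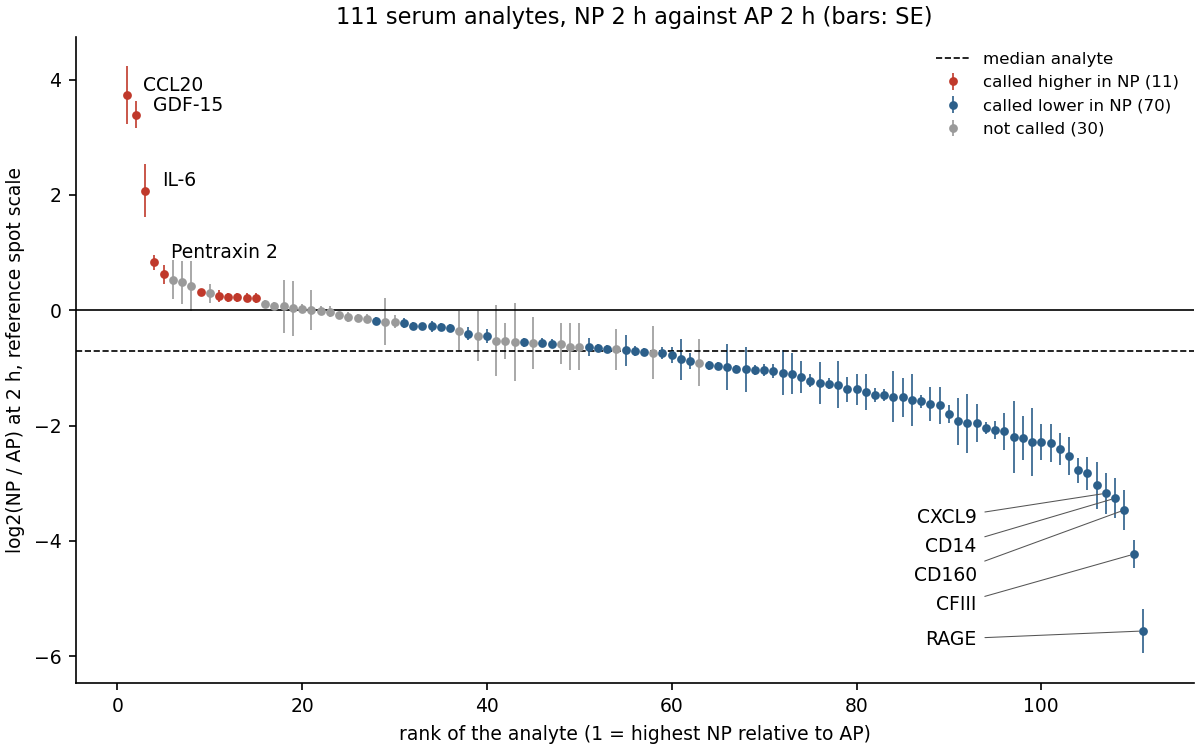
The log2 ratio of NP to AP at 2 h on the reference scale (vertical axis) is plotted for 111 analytes by rank (horizontal axis), with standard errors as bars. Red points are the 11 analytes called higher in NP, blue points the 70 called lower and grey points those not called, and the dashed line is the median analyte at -0.70.

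The difference also followed the place of the antibody on the membrane. Row medians were -1.03 in row A, -1.54 in row B, -1.19 in row C and -1.58 in row D. They were -0.85, -0.55 and -0.68 in rows E, F and G. In rows H, I and J they were -0.41, -0.30 and 0.04. Across the 111 analytes, which share 4 membranes, the difference correlated with the row number with Pearson's r = 0.29 and Spearman's rho = 0.44. Rows A to E held 43 of the 70 lower calls and rows F to J held 27. When a plane fitted to the 3 reference positions scaled each membrane (plane scaling), r with the row number was -0.02, 6 analytes were higher in NP and 84 lower, and the median analyte was at -1.03. The plane is extrapolated to the corner of the membrane that has no reference spot. The part of the position in any single difference was not tested, and values on the plane are given beside the main results.

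**Figure D2:**
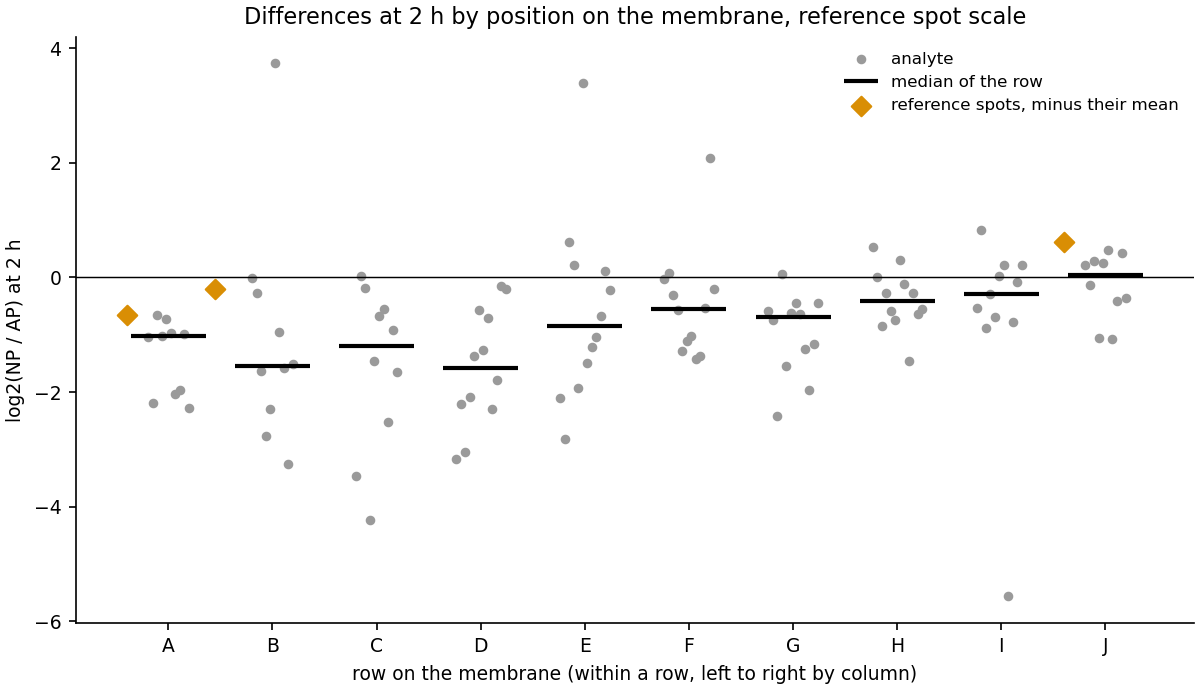
The log2 ratio of NP to AP at 2 h on the reference scale (vertical axis) is shown for each analyte (grey) by membrane row A to J (horizontal axis), with the median of each row (black bar) and the reference spots minus their mean (orange diamonds). Row medians lie between -1.58 and -0.30 in rows A to I and at 0.04 in row J.

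The analytes furthest above the rest in NP were CCL20, GDF-15 and IL-6. CCL20 is the chemokine that attracts cells with the receptor CCR6, among them type 17 T cells and immature dendritic cells. It stood at 6.69% and 4.61% of the reference spots in the NP samples, against 0.349% and 0.499% in the AP samples. Both NP samples were far above both AP samples, a 13.3-fold difference with a log2 value of 3.73 ± 0.50 (SE, limma, adjusted p = 6.7e-06). On the plane the difference was 4.00 and on the normalized intensity 3.21.

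GDF-15, a hormone released by stressed tissue, stood at 16.6% and 19.6% in NP, against 1.89% and 1.57% in AP. The groups were 10.5-fold apart without overlap, with a log2 difference of 3.39 ± 0.23 (SE, limma, adjusted p = 5.8e-09). Of the stress hormones on the array, GDF-15 was the one that was higher in NP, and FGF-21, described below, was lower.

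IL-6, the main cytokine inducer of acute phase proteins, was dim in every sample. It read 0.519% and 0.932% in NP, against 0.225% and 0.121% in AP, so that the AP samples lay only slightly above their negative control. The log2 difference was 2.07 ± 0.46 (SE, limma, adjusted p = 0.00093), or 1.62 on the plane and 1.55 on the normalized intensity. Among the other gp130 cytokines, the family that signals through the same receptor subunit, IL-27 p28 was lower in NP, and LIF and IL-11 did not pass the test.

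Pentraxin 2 and Flt-3 Ligand were higher by smaller amounts. Pentraxin 2, the serum amyloid P component that the mouse liver makes as an acute phase protein, had 12.2% and 12.8% in NP, against 6.90% and 7.11% in AP. The samples did not overlap and the log2 difference was 0.83 ± 0.13 (SE, limma, adjusted p = 3.8e-05), but on the plane it was 0.31 with an adjusted p of 0.055. Flt-3 Ligand, a growth factor of dendritic cell and early blood cell progenitors, had 6.32% and 7.68% in NP, against 4.75% and 4.30% in AP. Its log2 difference of 0.62 ± 0.17 (SE, limma, adjusted p = 0.0037) was 0.63 on the plane and 0.10 on the normalized intensity, where the adjusted p was 0.59.

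The calls named next were small and turned with the scale. MMP-3, a matrix protease also called stromelysin-1, had 135% and 144% of the reference spots in NP, against 113% and 111% in AP, and differed by 0.31 ± 0.06 on the log2 scale (SE, limma, adjusted p = 0.00024). Its difference was -0.22 on the normalized intensity and -0.27 on the plane. Thrombopoietin, the growth factor of megakaryocytes, E-Selectin, an endothelial adhesion molecule, and Resistin, an adipose and myeloid hormone, differed by 0.25, 0.22 and 0.21. All 3 were below 0 on both of these scales, at -0.28, -0.31 and -0.31 on the normalized intensity and at -0.57, -0.44 and -0.67 on the plane. Gas 6, a ligand of the TAM receptors, differed by 0.22, by -0.31 on the normalized intensity and by 0.19 on the plane. Thrombopoietin, Gas 6, E-Selectin and Resistin each lost their call with single samples left out, at adjusted p of up to 0.15, 0.091, 0.17 and 0.40. For all 4 this held without NP replicate 2 and without AP replicate 1, and for Thrombopoietin and Gas 6 also without AP replicate 2.

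Leptin, TIM-1, VEGF and Serpin E1 ranked near the top without passing the test. Leptin, the satiety hormone of fat cells, read 0.329% and 0.451% in NP, against 0.251% and 0.284% in AP, a log2 difference of 0.53 (limma, adjusted p = 0.17). TIM-1, shed by injured kidney tubules, and VEGF, the main growth factor of blood vessels, differed by 0.48 and 0.42, and their NP and AP samples overlapped. Serpin E1, the inhibitor of plasminogen activators, had 24.3% and 28.2% in NP, against 20.8% and 22.0% in AP, a log2 difference of 0.29 (limma, adjusted p = 0.13). The last 3 were below 0 on the plane, at -0.38, -0.56 and -0.45.

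At the other end of the ranking stood RAGE, the receptor for advanced glycation end products, which binds danger signals and circulates in a cut form. It had 0.300% and 0.852% in NP, against 24.3% and 23.4% in AP. This was a 47.2-fold lower level in NP without overlap, with a log2 difference of -5.56 ± 0.39 (SE, limma, adjusted p = 5.8e-09). NP replicate 1 lay only slightly above its negative control of 0.263%, so the size of the fold is uncertain. Over the 17 settings described below, the log2 difference of RAGE ran from -7.16 to -4.00. RAGE lies in row I, where the row median was -0.30, and its difference was -6.32 on the plane.

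Coagulation Factor III (CFIII), or tissue factor, which starts the clotting cascade, had 0.819% and 0.630% in NP, against 13.6% and 13.4% in AP. The log2 difference was -4.23 ± 0.25 (SE, limma, adjusted p = 1.1e-09), an 18.8-fold lower level in NP, and -4.02 on the plane. The other hemostasis factors moved little or the other way. PDGF-BB, the platelet growth factor, had 14.1% and 17.7% in NP, against 22.4% and 23.4% in AP. The samples did not overlap, yet the log2 difference of -0.54 ± 0.31 (SE) did not pass with the spread shared by all groups (limma, adjusted p = 0.14). It passed in a fit of the 4 samples at 2 h alone, at an adjusted p of 0.00073, and on the normalized intensity, at -1.06 with an adjusted p of 0.0051.

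The shed immune and injury receptors had the lowest median of the role lists, -2.65 against -0.70 over all analytes, and 5 of 6 were lower in NP, against 63.1% of all analytes. Besides RAGE these were CD160, CD14, C1q R1 and DPPIV, with TIM-1 as the exception. CD14, the co-receptor for bacterial lipopolysaccharide on monocytes, had 0.219% and 0.285% in NP, against 2.61% and 2.20% in AP, a log2 difference of -3.26 ± 0.35 (SE, limma, adjusted p = 5.1e-07). CD160, a receptor of natural killer and T cells, had 0.0732% and 0.106% in NP, against 0.941% and 1.00% in AP, a difference of -3.46 ± 0.35 (SE, limma, adjusted p = 3.1e-07). For CD14 and CD160 only 1 of the 2 NP samples was above the negative control, so the NP level is at the limit of the array. CD160 lies in row C, where the median of the differences was -1.19, and relative to that median its difference was -2.27. With the median level of each membrane row set equal in each sample, its difference was -0.61 with an adjusted p of 0.14. In row C that median level falls between CFIII and Complement Component C5, both called lower, so it shifts with them.

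**Figure D3:**
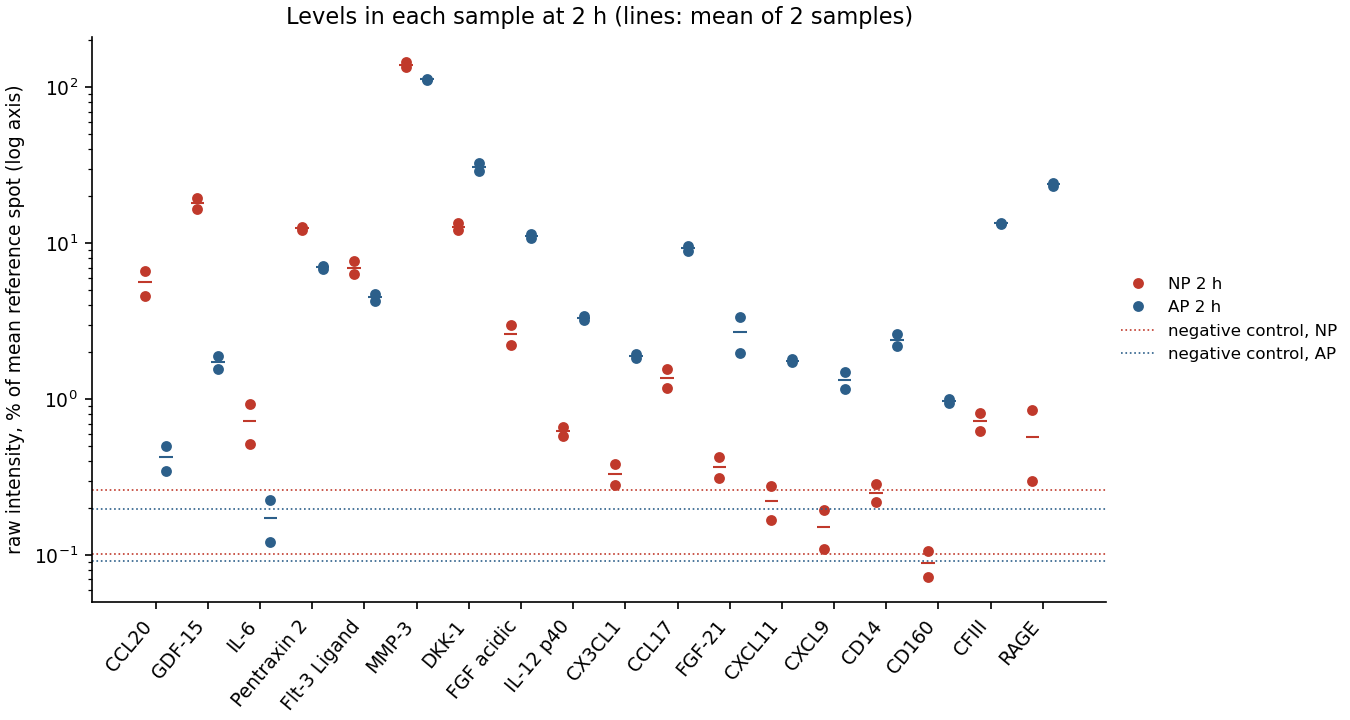
Raw intensity as a percent of the mean reference spot (vertical log axis) is shown for each NP sample (red) and AP sample (blue) at 2 h, with the mean as a short line and the negative controls as dotted lines, for 18 analytes (horizontal axis) ordered by their difference. CCL20 and GDF-15 are the widest gaps with NP above AP, RAGE and CFIII the widest with NP below AP, and the NP samples of CXCL11, CXCL9, CD14 and CD160 lie at the negative controls.

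The CXC and CX3C chemokines were lower in NP in 8 of 9 cases, against 63.1% of all analytes, and CXCL1 did not pass. Their median was -2.08 against -0.70 over all analytes, and -0.50 relative to the membrane rows C, D and H in which they lie. The medians of rows C and D include many of these chemokines, so the role and the position are not separated. CXCL9 and CXCL11, interferon-induced ligands of CXCR3 that attract activated T cells, were the lowest of them. CXCL9 had 0.110% and 0.196% in NP, against 1.50% and 1.16% in AP, a log2 difference of -3.17 ± 0.35 (SE, limma, adjusted p = 8.3e-07). CXCL11 had 0.168% and 0.277% in NP, against 1.74% and 1.80% in AP, a difference of -3.04 ± 0.40 (SE, limma, adjusted p = 6.1e-06). In both cases 1 of the 2 NP samples was above the negative control. The third CXCR3 ligand, CXCL10, was also called lower. IFN-gamma, which induces all of them, was not called, although both NP samples lay below both AP samples. On the normalized intensity IFN-gamma was called lower, as were 86.5% of all analytes. For CXCL10 and IFN-gamma too, 1 of the 2 NP samples was above the negative control.

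CX3CL1, or fractalkine, a chemokine tethered to endothelium, had 0.388% and 0.281% in NP, against 1.96% and 1.85% in AP. Its log2 difference was -2.53 ± 0.34 (SE, limma, adjusted p = 6.6e-06). It was -1.34 relative to the median difference of row C, and 0.32 with the median level of that row set equal in each sample. The other chemokines of this list that were lower were CXCL2 and LIX, which attract neutrophils, CXCL13, which attracts B cells, and CXCL16.

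Of the 11 CC chemokines, CCL20 was higher, 9 were lower, against 63.1% of all analytes, and CCL6 did not pass, for a median of -1.58. CCL17, a ligand of CCR4 that draws type 2 and skin-homing T cells, had 1.17% and 1.58% in NP, against 8.96% and 9.67% in AP, a log2 difference of -2.77 ± 0.22 (SE, limma, adjusted p = 1.5e-08). CCL19, a ligand of CCR7 that guides dendritic cells and naive T cells to lymph nodes, had 0.285% and 0.311% in NP, against 1.54% and 1.37% in AP, a difference of -2.29 ± 0.31 (SE, limma, adjusted p = 7.4e-06). CCL22 and CCL21, the other ligands of CCR4 and CCR7 on the array, were lower as well. CCL2, the main monocyte attractant, was above the negative control in neither NP sample and in both AP samples. On the reference scale AP exceeded NP at least 2.64-fold. Over the 17 settings described below, its log2 difference ran from -6.28 to -0.37 and did not pass each time, so the bound holds for the reference scale only. The list lies wholly in rows A and B, and relative to its rows its median was -0.04. Most analytes of row B belong to the list, so the row median is largely its own. The role and the position cannot be told apart here.

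FGF-21, a metabolic hormone of the liver and other stressed tissues, had 0.424% and 0.315% in NP, against 3.37% and 1.99% in AP. The samples were well apart, with a log2 difference of -2.83 ± 0.29 (SE, limma, adjusted p = 3.0e-07). FGF acidic (FGF-1), a growth factor for fibroblasts and endothelium that cells release on damage, had 2.24% and 3.00% in NP, against 11.4% and 10.8% in AP, a difference of -2.10 ± 0.32 (SE, limma, adjusted p = 2.5e-05). Of the 9 angiogenesis regulators, Angiopoietin-1, Angiopoietin-2, HGF and Serpin F1 were also lower, and none was higher. The 5 lower calls of this list were near the share of 63.1% over all analytes, and its median was -0.66 against -0.70. Angiopoietin-1, Angiopoietin-2, HGF and Serpin F1 changed sides under at least 1 setting. Both EGF receptor ligands, which drive keratinocyte growth, were lower, against 63.1% of all analytes. EGF had 0.128% and 0.192% in NP, against 0.941% and 0.635% in AP, a difference of -2.30 ± 0.33 (SE, limma, adjusted p = 1.2e-05), with 1 of 2 NP samples above the negative control.

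IL-12 p40, the subunit that IL-12 and IL-23 share, was lower in NP. It had 0.585% and 0.664% in NP, against 3.23% and 3.40% in AP, a log2 difference of -2.41 ± 0.28 (SE, limma, adjusted p = 1.2e-06). In the list of type 1, type 17 and interferon cytokines, IL-28A/B was the other analyte called lower, and 4 of 6 did not pass. Of all analytes 63.1% were called lower. In this list 3 of 6 were above the negative control in both NP samples. IL-17A, the effector cytokine of type 17 cells, read 0.102% and 0.170% in NP, against 0.186% and 0.225% in AP, with 1 of 2 samples of each group above the negative control and a difference of -0.63 (limma, adjusted p = 0.17). IL-13, a type 2 cytokine, had overlapping samples, 0.366% and 0.447% in NP and 0.640% and 0.233% in AP. IL-4 was the type 2 cytokine called lower.

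In the IL-1 family 3 of 4 were lower, against 63.1% of all analytes. IL-1 beta, the product of the inflammasome, had 0.0841% and 0.141% in NP, against 0.327% and 0.216% in AP, a log2 difference of -1.29 ± 0.41 (SE, limma, adjusted p = 0.011). In NP 1 of its 2 samples was above the negative control, and the call was lost when NP replicate 1 or AP replicate 1 was left out, at adjusted p of 0.10 and 0.090. All 4 members of the TNF superfamily were lower, against the same 63.1%. Among them CD40, the receptor through which T cells activate dendritic cells and B cells, had 0.626% and 0.822% in NP, against 2.18% and 1.90% in AP, a difference of -1.50 ± 0.34 (SE, limma, adjusted p = 0.00093). Of the 8 hematopoietic and lymphoid growth factors, 6 were lower and Flt-3 Ligand was higher, and the share of lower calls was near the 63.1% of all analytes.

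DKK-1, a secreted inhibitor of Wnt signaling, had 12.1% and 13.5% in NP, against 29.1% and 32.9% in AP. The groups did not overlap and the log2 difference was -1.27 ± 0.10 (SE, limma, adjusted p = 1.2e-08), -1.29 on the plane and -0.57 relative to the median analyte. In its row D the median was -1.58, and with the medians of the membrane rows set equal its difference was 0.22 with an adjusted p of 0.13. WISP-1, the other protein of the Wnt pathway, did not pass.

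**Figure D4:**
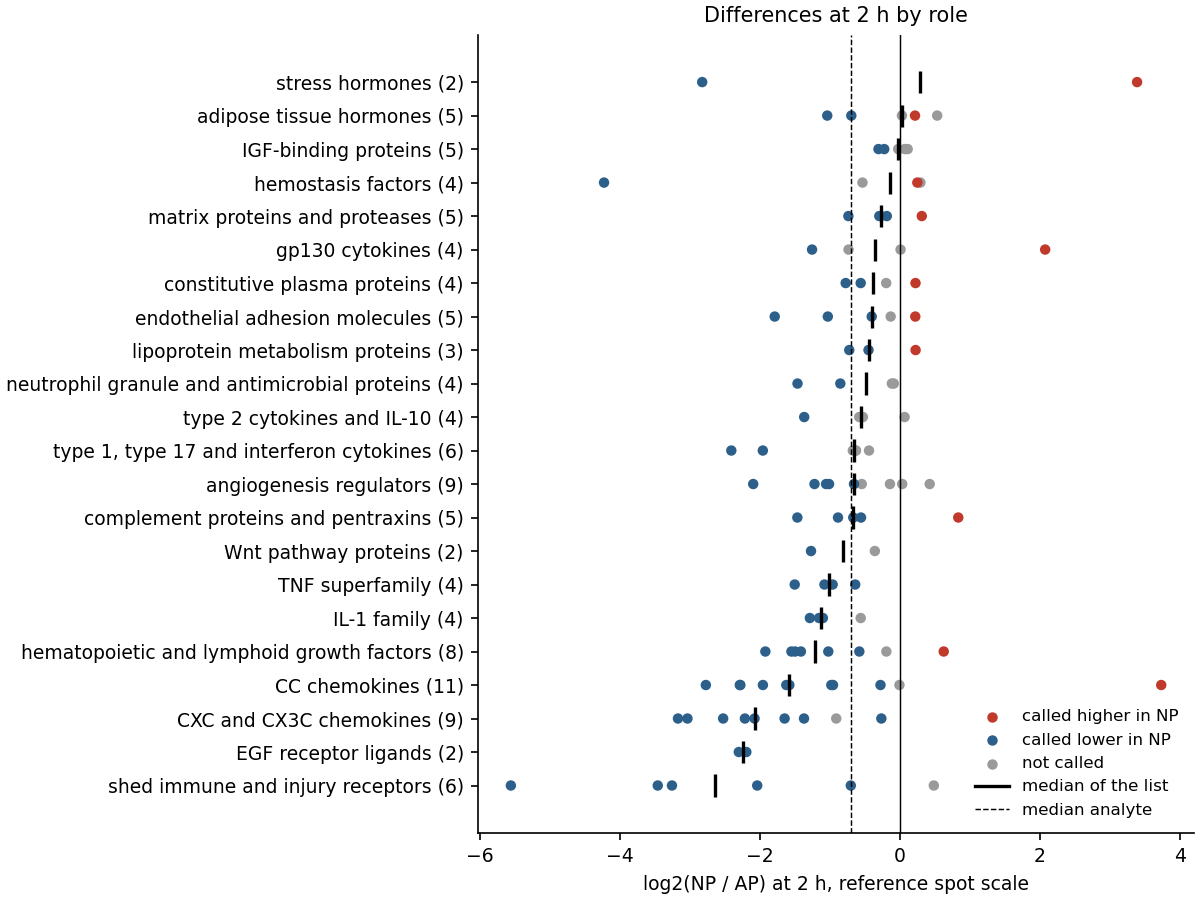
The log2 ratio of NP to AP at 2 h on the reference scale (horizontal axis) is shown for every analyte by role list (vertical axis, number of members in brackets), red where called higher in NP, blue where called lower and grey where not called, with the list median as a black bar. List medians run from -2.65 in the shed receptors to 0.28 in the stress hormones, and the dashed line is the median analyte at -0.70.

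Across the 111 analytes the difference correlated with the mean log2 level over all samples, with Pearson's r = 0.23 and Spearman's rho = 0.30. In groups of analytes by brightness, however, the median did not change in 1 direction. The 28 analytes with the brightest spots over all samples had a median log2 difference of -0.28, the next 27 one of -0.64, the next 28 one of -1.94 and the dimmest 28 one of -0.79. The dimmest 28 had a median level of 0.213% in NP, which lies between the negative controls of the NP samples. The 5 IGF-binding proteins, carriers of insulin-like growth factors, had a median of -0.03. Of these, 2 were lower and 3 did not pass, against 63.1% of all analytes called lower. Against 29.7% of all analytes, all 5 carriers were called above the median analyte. IGFBP-1, the brightest of them at 2 h, had 179% and 197% in NP, against 174% and 175% in AP, a difference of 0.11 (limma, adjusted p = 0.17) that was -0.42 on the normalized intensity and -0.21 on the plane. Reg3G, an antimicrobial lectin of epithelia, had 115% and 120% in NP, against 124% and 125% in AP, a difference of -0.09 (limma, adjusted p = 0.24), which was 0.24 when the median of the reference spots replaced their mean.

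The remaining lists held calls in both directions or around the median analyte, beside the 63.1% of all analytes that were lower. Of 5 complement proteins and pentraxins, Pentraxin 2 was higher and CRP, Pentraxin 3, Complement Factor D and Complement Component C5 were lower. Of 5 endothelial adhesion molecules, E-Selectin was higher and VCAM-1, ICAM-1 and Endoglin lower. Myeloperoxidase and Lipocalin-2 were lower among the neutrophil granule and antimicrobial proteins, and MMP-9 and Reg3G did not pass. Chitinase 3-like 1, MMP-2, Osteopontin and Periostin were lower among the matrix proteins and proteases.

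Proteins that mark the cells and organs behind the serum were summed to describe its make-up. Over all 111 analytes the sum was between 1888 and 2074% of the reference spots in NP, against 2588 to 2602% in AP. Of all analytes 63.1% were called lower, and 87 of 111 were above the negative control in both NP samples. The 6 platelet-released proteins summed to between 201 and 233% of the reference spots in NP, against 244 to 256% in AP, with 3 of 6 called lower and 4 of 6 above the negative control in both NP samples. The 3 neutrophil granule proteins summed to between 33.0 and 36.3% in NP, against 46.8 to 49.7% in AP, with 2 of 3 lower. The 5 liver-made plasma proteins summed to between 91.9 and 99.7% in NP, against 128 to 136% in AP, with 3 lower and 1 higher. No raw value of any analyte was at or below 0, so a value above 0 does not show that a marker was present. In NP replicate 1, EGF and CCL5 of the platelet list were below the negative control. The part of the release from these cells in the other differences was not tested.

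The difference at 2 h was then set against those at 0.5 h and 16 h, which came from other samples. The 2 h difference exceeded that at 0.5 h for 15 analytes (13.5%) and fell below it for 64 (57.7%), and against 16 h the counts were 9 (8.11%) and 56 (50.5%), by limma at an adjusted p threshold of 0.05. These counts include the shift of the median analyte, which depended on the scale at the other times as well. In the AP samples at 16 h the negative control stood at 0.794% and 1.17%, and 78 and 66 analytes were above it. Neither of these samples exceeded it for CCL20, GDF-15, RAGE, FGF acidic or PDGF-BB, so their differences at 16 h do not measure a fold. The medians at 0.5, 2 and 16 h were -0.02, -0.70 and -0.02 on the reference scale, 0.42, -1.23 and -0.52 on the normalized intensity and -0.37, -1.03 and -0.01 on the plane, and with the medians of the samples set equal they were -0.58, 0.65 and -1.06.

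CCL20 differed by 0.59 at 0.5 h, 3.73 at 2 h and 1.16 at 16 h, and was called at 2 h alone. The 2 h value exceeded those at 0.5 h and 16 h by 3.14 and 2.57 (limma, adjusted p = 0.0013 and 0.0049). GDF-15 averaged 5.78 ± 0.195% in NP and 7.41 ± 0.401% in AP at 0.5 h, 18.1 ± 2.14% in NP and 1.73 ± 0.226% in AP at 2 h, and 0.793 ± 0.177% in NP and 0.709 ± 0.0430% in AP at 16 h (SD, n = 2 each). Its log2 difference was -0.36 at 0.5 h and 0.14 at 16 h, neither of which passed.

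RAGE changed sides between the first time points. It averaged 15.4 ± 0.492% in NP and 1.48 ± 0.270% in AP at 0.5 h, and 0.576 ± 0.390% in NP and 23.9 ± 0.668% in AP at 2 h (SD, n = 2 each). The log2 difference was 3.39 at 0.5 h, -5.56 at 2 h and 0.81 at 16 h, and the 2 h value was lower than that at 0.5 h by 8.95 (limma, adjusted p = 5.4e-09). At 16 h the difference of RAGE did not pass, and neither AP sample was above the negative control. FGF-21 and FGF acidic had the same order of signs and passed at all 3 times. The differences at 0.5, 2 and 16 h were 0.87, -2.83 and 3.09 for FGF-21 and 1.07, -2.10 and 1.33 for FGF acidic. For FGF acidic neither AP sample at 16 h was above the negative control. DKK-1 was higher in NP at 0.5 h by 0.58 and lower at 2 h, and its difference at 16 h of -0.20 did not pass.

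CFIII averaged 0.725 ± 0.134% in NP and 13.5 ± 0.118% in AP at 2 h, and 6.73 ± 0.430% in NP and 0.801 ± 0.123% in AP at 16 h (SD, n = 2 each). Its log2 difference was -0.51 at 0.5 h, -4.23 at 2 h and 3.08 at 16 h. In AP at 16 h only replicate 1 of CFIII was above its negative control, at 0.888% against 0.794%. The size of its 16 h difference is therefore uncertain. PDGF-BB had a log2 difference of 2.74 at 0.5 h and of 5.20 at 16 h, higher in NP both times, and the 2 h difference of -0.54 was lower than both (limma, adjusted p = 1.5e-05 and 1.9e-08). At 16 h neither AP sample of PDGF-BB was above the negative control, so the size of the difference there is not a measured fold. Pentraxin 2 was lower in NP at 0.5 h by 0.67, higher at 2 h by 0.83 and close to even at 16 h, at -0.04.

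**Figure D5:**
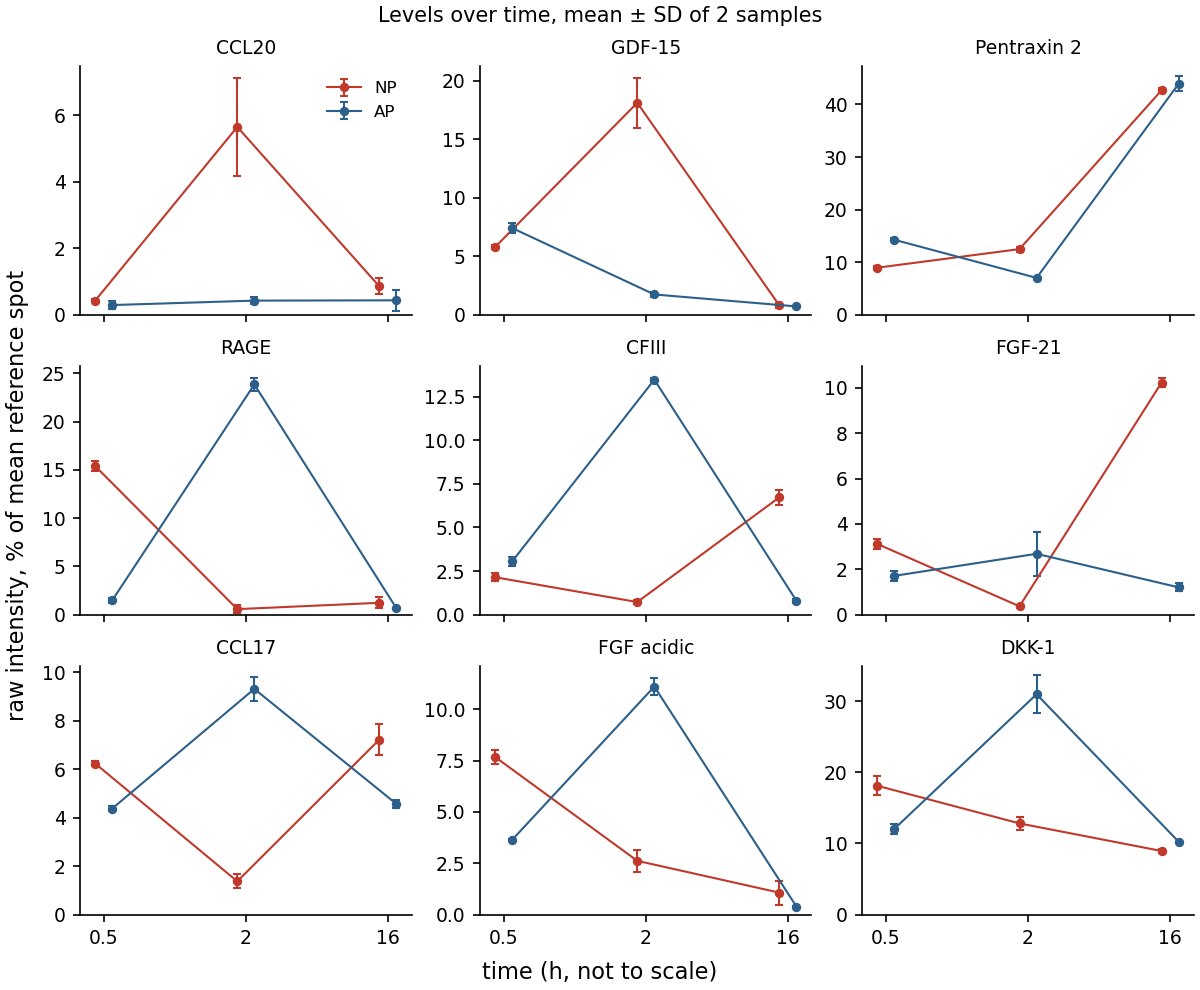
Raw intensity as a percent of the mean reference spot (vertical axes, each from 0) is shown for 9 analytes at 0.5, 2 and 16 h (horizontal axis, not to scale) in NP (red) and AP (blue), as the mean and SD of 2 samples. At 2 h GDF-15 is at 18.1% in NP against 1.73% in AP, and RAGE is at 0.576% in NP against 23.9% in AP.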

How the data were processed

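Serum of 14 samples was measured on membrane arrays for 111 analytes. The deposited files hold the raw intensity of each spot, quantified by the authors with ImageJ, and a normalized intensity, for which the authors multiplied the raw value by the smaller of 1 and the other replicate's mean reference spot over the sample's own (recomputed here, largest relative difference 4.7e-06). They also hold fold changes against AP at 0 h, which were not used. Background subtraction is not given in the sources used here. An analyte counted as detected above the negative control of its sample. The number of membranes limits the precision.

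Log2 of the raw intensity over the mean of the 3 reference positions was fitted in limma 3.58.1 (R 4.3.3; lmFit, eBayes with trend) over all 14 samples without a replicate block, so that the 7 groups share a spread, with Benjamini-Hochberg adjustment over 111 analytes and a threshold of 0.05. Contrasts were NP against AP at 2 h and its difference from the contrasts at 0.5 h and 16 h. Tables and figures used Python 3.11.15, numpy 2.4.6, pandas 2.3.3, scipy 1.17.1 and matplotlib 3.10.9. The script was tested on simulated data.

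The analytes named are the 12 furthest above and the 12 furthest below the median analyte, all called higher, those that the study discusses, 1 for each role list otherwise without one, and those above the negative control in neither sample of a group. 1 analyte under this rule is not reported here, though it is counted. The members and lists were chosen with earlier results of these data known. Alternatives were other scales (normalized, raw, median, quantile, median of the reference positions, plane), the negative control subtracted, an offset of 1% of the reference, the lowest 0.25 of analytes left out, no trend, fewer samples, a replicate block, each sample left out, and the methods' t-test. Setting the medians of the membrane rows equal was added after the data were seen. It takes the median level of a row in each sample, which is not the median of the row's differences.

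A fold against a group with no sample above its negative control is a bound, from the brighter group's mean log2 level against the mean over the dim samples of the higher of the analyte's own level and the lowest level detected there.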

Additional observations from a re-analysis of the deposited data

Results flagged for a closer look

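The log2 difference between NP and AP at 2 h differed from that at an earlier or later time for most of the analytes named, by the limma test of the difference itself at an adjusted p threshold of 0.05. All values below are the 2 h difference minus the difference at the other time on the reference scale, and they include the shift of the median analyte, which depended on the scale at each time. Groups of 2 samples allow no test for outliers. Neither AP sample at 16 h was above the negative control for CCL20, GDF-15, RAGE, PDGF-BB, FGF acidic, CCL19, CXCL9, CD14 and CD160. The values of these analytes against 16 h therefore rest on a level that was not detected. For CFIII, EGF, CX3CL1 and CD40, AP replicate 2 at 16 h was not above it either, so their values against 16 h are uncertain in size.

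Above the earlier and the later difference stood GDF-15, by 3.74 against 0.5 h and 3.24 against 16 h, and CCL20, by 3.14 and 2.57. Pentraxin 2 exceeded them by 1.50 and 0.87, Flt-3 Ligand by 0.76 and 1.28, MMP-3 by 0.58 and 0.47 and Gas 6 by 0.81 and 0.37. Against 0.5 h alone the 2 h difference was larger for Serpin E1 by 2.33, for IL-6 by 1.97, for TIM-1 by 1.40 and for IGFBP-1 by 0.55.

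Below both stood RAGE, at -8.95 against 0.5 h and -6.37 against 16 h, CFIII, at -3.72 and -7.31, FGF-21, at -3.69 and -5.92, and PDGF-BB, at -3.28 and -5.73. The values for FGF acidic were -3.17 and -3.43, and for DKK-1 -1.86 and -1.08. Among the chemokines they were -3.29 and -3.43 for CCL17, -1.61 and -2.96 for CCL19, -2.34 and -2.23 for CX3CL1, -3.54 and -3.47 for CXCL9 and -2.88 and -2.06 for CXCL11. Of the receptors, CD14 had -3.03 and -3.59, CD160 -2.34 and -3.85 and CD40 -1.21 and -2.47. EGF had -2.72 and -2.29, and IL-12 p40 -2.39 and -2.78. Against 0.5 h alone, the 2 h difference was smaller for IL-17A at -1.38, for Leptin at -1.21 and for Reg3G at -0.32.

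Relative to the median analyte, the tests for Leptin, IL-17A, CD40 and CCL19 against 0.5 h no longer passed, with adjusted p of 0.41, 0.35, 0.41 and 0.099, and that of Reg3G had the other sign, at 0.41 on the log2 scale.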

How the results depend on the processing

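Over 17 settings of the limma fit, CCL20, GDF-15 and IL-6 were called higher in NP in every one, and 13 analytes were called lower in every one, namely RAGE, CFIII, CD160, CD14, CXCL9, CXCL11, FGF-21, CCL17, CX3CL1, IL-12 p40, EGF, CXCL13 and C1q R1. These settings do not include the equal medians of the membrane rows, under which CD160 and CX3CL1 were not called lower. A further 19 analytes kept a lower level and 3 a higher level in NP without passing each time, and 73 changed sides under at least 1 setting. Few pools, dim spots near the negative control and uneven reference spots limit what the arrays can show at this number of membranes, and the cause of a change with the setting was not tested.

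Against 11 analytes called higher, 4 were called on the authors' normalized intensity, 4 on the raw intensity, 50 with median scaling, 30 with quantile normalization, 20 with the median of the reference positions, 6 on the plane and 39 with the medians of the membrane rows set equal, an alternative chosen after seeing the data. The methods' t-test called 3 at an unadjusted threshold and 2 after Benjamini-Hochberg adjustment. Against 70 called lower, median scaling gave 13, quantile normalization 31 and equal row medians 25. Leaving out 1 sample at 2 h gave 6 to 11 called higher, the lowest without NP replicate 2, and 60 to 69 called lower. The 38 analytes below the median analyte became 19 with the negative control subtracted and 25 to 34 with 1 sample left out, the lowest without AP replicate 2. The 79 analytes whose difference changed between 0.5 h and 2 h became 42 with quantile normalization.

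The replicate numbers name samples and no source pairs them. Deviations of the same-numbered NP and AP samples at 2 h correlated at 0.24, and over 21 pairs of groups the value ran from -0.18 to 0.50 and exceeded 0.1 in 14. With the replicate number as a block, 10 analytes were called higher and 72 lower.

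Directions of single analytes turned as follows. On the normalized intensity TIM-1 was at -0.044, VEGF -0.10, MMP-3 -0.22, Serpin E1 -0.24, Thrombopoietin -0.28, Gas 6 -0.31, E-Selectin -0.31, Resistin -0.31, IGFBP-1 -0.42 and IL-13 -0.46. The log2 ratios of means behind the methods' t-test were -0.063, -0.23, -0.21, -0.23, -0.28, -0.31, -0.31, -0.31, -0.42 and -0.63 for the same analytes in that order. On the raw intensity VEGF was at -0.027, MMP-3 -0.14, Serpin E1 -0.16, Thrombopoietin -0.20, Gas 6 -0.23, E-Selectin -0.23, Resistin -0.24, IGFBP-1 -0.34 and IL-13 -0.39. On the plane TIM-1 was at -0.38, VEGF -0.56, MMP-3 -0.27, Serpin E1 -0.45, Thrombopoietin -0.57, E-Selectin -0.44, Resistin -0.67, IGFBP-1 -0.21 and IL-13 -0.25. Reg3G turned to 1.26 with median scaling, 0.30 with quantile normalization, 0.24 with the median of the reference positions and 0.54 with equal row medians. PDGF-BB turned to 0.81, 0.13 and 0.088 and IL-17A to 0.72, 0.53 and 0.18 with median scaling, quantile normalization and equal row medians. DKK-1 was at 0.077 with median scaling and 0.22 with equal row medians, IL-1 beta at 0.060 with median scaling and 0.084 with quantile normalization, CX3CL1 at 0.32 with equal row medians and IGFBP-1 at 0.00 with quantile normalization. IL-13 was at -0.41 with the negative control subtracted, -0.017 with the offset and between -0.66 and 0.79 with 1 sample left out (-0.66 without AP replicate 2), and VEGF between -0.20 (without AP replicate 2) and 1.05.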
